A study of Mus musculus with 11 samples.

Results

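The mitochondrial ribosomal protein genes are the genes of the deposited expression table whose symbol starts with Mrps or Mrpl followed by a digit, with pseudogene names left out. The rule found 77 of 14864 genes, or 0.518% of the table. Of these, 29 carry a small subunit name (Mrps) and 48 a large subunit name (Mrpl). All 77 passed the filter of a mean of at least 1 CPM, so no member dropped out. CPM here are scaled counts as deposited, where libraries share an upper quartile and not a total. The RNA came from the hypothalamus of mice aged 60 to 70 postnatal days. The WT group held 2 females and 3 males (n = 5), and the group heterozygous for Myt1l, a zinc finger transcription factor of neurons, held 3 females and 3 males (Het, n = 6). The sources used here do not give the Het allele, the strain or any pooling of tissue. The design text calls the libraries replicates of each genotype and says no more of how they were collected, so p-values measure the spread between these libraries.

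Mitochondria keep their own ribosome, which translates the few respiratory chain and ATP synthase proteins that mitochondrial DNA encodes. Its RNAs come from mitochondrial DNA, while every one of its proteins is encoded in the nucleus, made on cytosolic ribosomes and imported. Many of these proteins have a counterpart in bacterial ribosomes, and others arose in the mitochondrial lineage. Names do not always give the subunit. The proteins of Mrps30 and Mrps18a carry small subunit names and are known as parts of the large subunit, and the protein of Mrps36 is now known as a subunit of the oxoglutarate dehydrogenase complex.

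Values are CPM after a correction made before deposit, and corrected counts totalled 22921048 to 24941704 per library. The library labelled WT replicate 11 and the library labelled Het replicate 9 go against their labels. Myt1l stood at 51.1 CPM in WT replicate 11 and at 70.5 to 89.3 CPM in the other 4 WT libraries. It stood at 130 CPM in Het replicate 9 and at 58.7 to 75.9 CPM in the other 5 Het libraries. Rnaseh1, on the same chromosome as Myt1l, was 13.0 CPM in WT replicate 11 and 15.2 to 17.0 CPM in the other WT libraries, and 17.7 CPM in Het replicate 9 and 12.2 to 13.8 CPM in the other Het libraries. The labelled groups are used throughout, and the main results are also given with this pair of libraries left out. Of 15 hypothalamus markers, 14 were measured, none at 0 in any library, and Kiss1 is not analysed here. Hcrt was highest of them on average, with 774 to 1476 CPM over the 11 libraries. In bulk tissue, fewer cells of a type and less RNA per cell cannot be told apart.

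The start regions of the members were searched for 3 motifs of factors known from mitochondrial and ribosomal gene promoters. Windows of 300 bases, from 250 before to 50 after the start, were taken from RefSeq on GRCm38.p6, where 68 of the 77 members and 11627 genes of the table had an entry. The motif of the ETS family, to which GABP belongs (CCGGAAG), stood in 25 member windows (36.8%) and in 17.7% of all windows. The core of the NRF1 motif (GCATGCGC) stood in 8 member windows (11.8%) and in 5.49% of all. The motif of YY1 (AAGATGGCG) also stood in 8 (11.8%), against 3.11% of all. Both strands were searched, and 35 member windows (51.5%) held at least 1 of the 3, against 24.2% of all windows. In the 150 bases around the start the share was 44.1% for members and 19.2% for all. Each match is a match of letters and not a measured binding site, and promoter shares were compared as descriptions without a test.

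The 30-base stretches show these matches in the 4 members per motif with the lowest fitted genotype difference, so that letters and differences can be read side by side. Letters run 5′ to 3′ on the strand of the gene. Capitals mark a single match to the motif of that line, or to its reverse complement. In Mrpl39 a further NRF1 match at position -123 overlaps the capitals and runs past them in small letters. The first 4 hold NRF1, the next 4 the ETS motif and the last 4 YY1.
Mrpl33: taccggaacccGCGCATGCcccggaagtag
Mrpl22: ggcctcggactGCGCATGCgtatagtcagc
Mrpl39: caaggagaggcGCGCATGCgcccccgcgtg
Mrpl17: gccgagttactGCGCATGCgtcctctgaga
Mrps26: ctccgcggccaCTTCCGGgccgggcgcagg
Mrpl21: cgctgcttccgCTTCCGGttgggactgtgg
Mrps22: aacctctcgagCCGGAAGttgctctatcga
Mrpl33: ccgcgcatgccCCGGAAGtagtcgttgagc
Mrps24: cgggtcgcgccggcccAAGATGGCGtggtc
Mrpl37: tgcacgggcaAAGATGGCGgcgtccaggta
Mrps18a: ggtgcgttccAAGATGGCGgccctcagggc
Mrpl36: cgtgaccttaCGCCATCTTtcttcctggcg
In Mrpl33 the NRF1 and ETS matches lie side by side at positions -12 and -3 from the start (chr5:31613928-31613966, plus strand). The ETS match of Mrpl21 is at position 8 counted from its start (chr19:3283038-3283067, plus strand). The YY1 matches of Mrps18a, Mrpl37 and Mrps24 are at positions 12, 27 and 37, inside the transcribed part.

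Of the 5 members that passed the genotype test, Mrpl21 is shown above with its ETS match, and the windows of Mrps10 and Mrpl2 held none of the 3 motifs. Mrpl13 and Mrpl54 had no entry. Mrpl2 is printed as a called member that starts close to a neighbour that was not called. Whether the genes share a promoter was not tested. Shown are 198 bases before its start, outside annotated exons (chr17:46646023-46646220, plus strand), with no motif to capitalise.
Mrpl2: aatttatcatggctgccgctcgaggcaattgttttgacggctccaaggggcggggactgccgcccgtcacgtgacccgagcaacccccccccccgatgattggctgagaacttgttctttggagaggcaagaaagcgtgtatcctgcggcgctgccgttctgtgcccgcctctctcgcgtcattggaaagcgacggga
This stretch lies between the starts of Mrpl2 and Klc4, which are 207 bases apart on opposite strands.

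Members were expressed in every library, and the lowest single value was 5.64 CPM. Mean levels over all 11 libraries ran from 7.37 CPM for Mrps30 to 322 CPM for Mrpl28, with a median of 94.9 CPM, and 53 members lay between 50 and 200 CPM. To compare genes, levels were divided by the length of all annotated exons in kb. On that scale Mrpl41, a large subunit protein without a bacterial counterpart, was highest with 275 ± 27.7 CPM per kb (SD, n = 11 libraries). Mrps21 with 236 ± 30.3 and Mrpl28 with 233 ± 19.0 CPM per kb did not differ from each other beyond their spread. Mrps12, which encodes a protein of the decoding centre, had 194 ± 14.2, and Mrpl54 had 162 ± 22.0 CPM per kb. The lowest were Mrps18b with 8.08 ± 0.94, Mrpl3 with 5.69 ± 0.54, Mrpl33 with 5.42 ± 0.61, Mrps35 with 4.58 ± 0.60 and Mrps30 with 1.11 ± 0.24 CPM per kb. Mrpl3 and Mrpl33 lay within each other's spread, while Mrps30 stood apart at the bottom. The order depends on which exons are counted. Per kb of the longest transcript alone, Mrpl33 had 14.5 and Mrps30 had 1.94 CPM.

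**Figure D1:**
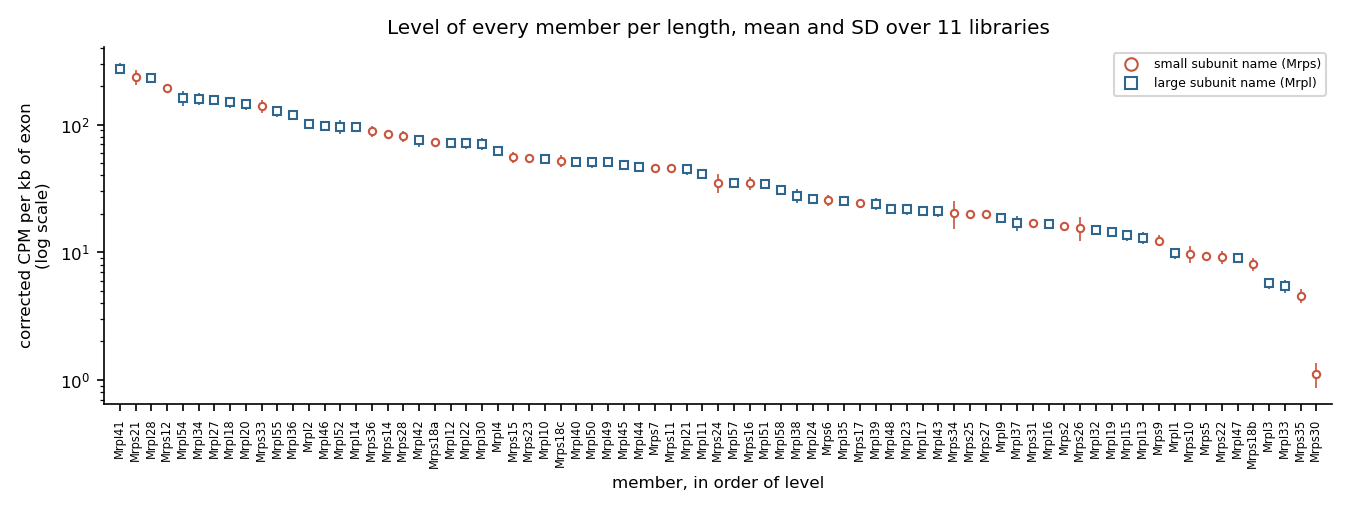
Mean corrected CPM per kb of annotated exon for each of the 77 members on a log axis, with SD over 11 libraries as bars and symbols by subunit name. Small and large subunit names are mixed along the order, from 275 for Mrpl41 to 1.11 for Mrps30.

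The 3 paralogs of a single bacterial protein, Mrps18a, Mrps18b and Mrps18c, differed in level. Mrps18a, whose protein sits in the large subunit, had 72.8 ± 5.14 CPM per kb, and Mrps18c had 52.1 ± 5.83 CPM per kb. Mrps18b, at 8.08 CPM per kb, was the lowest of them. Mrpl12, which encodes the stalk protein that contacts translation factors, had 71.6 ± 4.42 CPM per kb. Mrpl58, a peptidyl-tRNA hydrolase built into the large subunit that frees stalled ribosomes, had 30.7 ± 2.65 CPM per kb.

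Almost the whole family was a little lower in the Het libraries, and 5 members passed the test one by one. Fitted log2 differences (Het minus WT, with sex as a term) were below 0 for 74 of 77 members (96.1%), against 53.0% of the 13184 genes tested. The median member difference was -0.14, a level 9.07% lower, and the median of all genes was -0.02. The 5 members past a limma adjusted p of 0.05 were Mrps10, Mrpl13, Mrpl54, Mrpl21 and Mrpl2, all lower in Het. They are 6.49% of members, against 1.14% of all genes called lower and 3.44% called in either direction. At an unadjusted p under 0.05, 36 members (46.8%) were lower and 0 higher, against 11.7% of all genes lower. Members are not independent replicates of the genotype, because all 77 were read from the same 11 libraries.

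**Figure D2:**
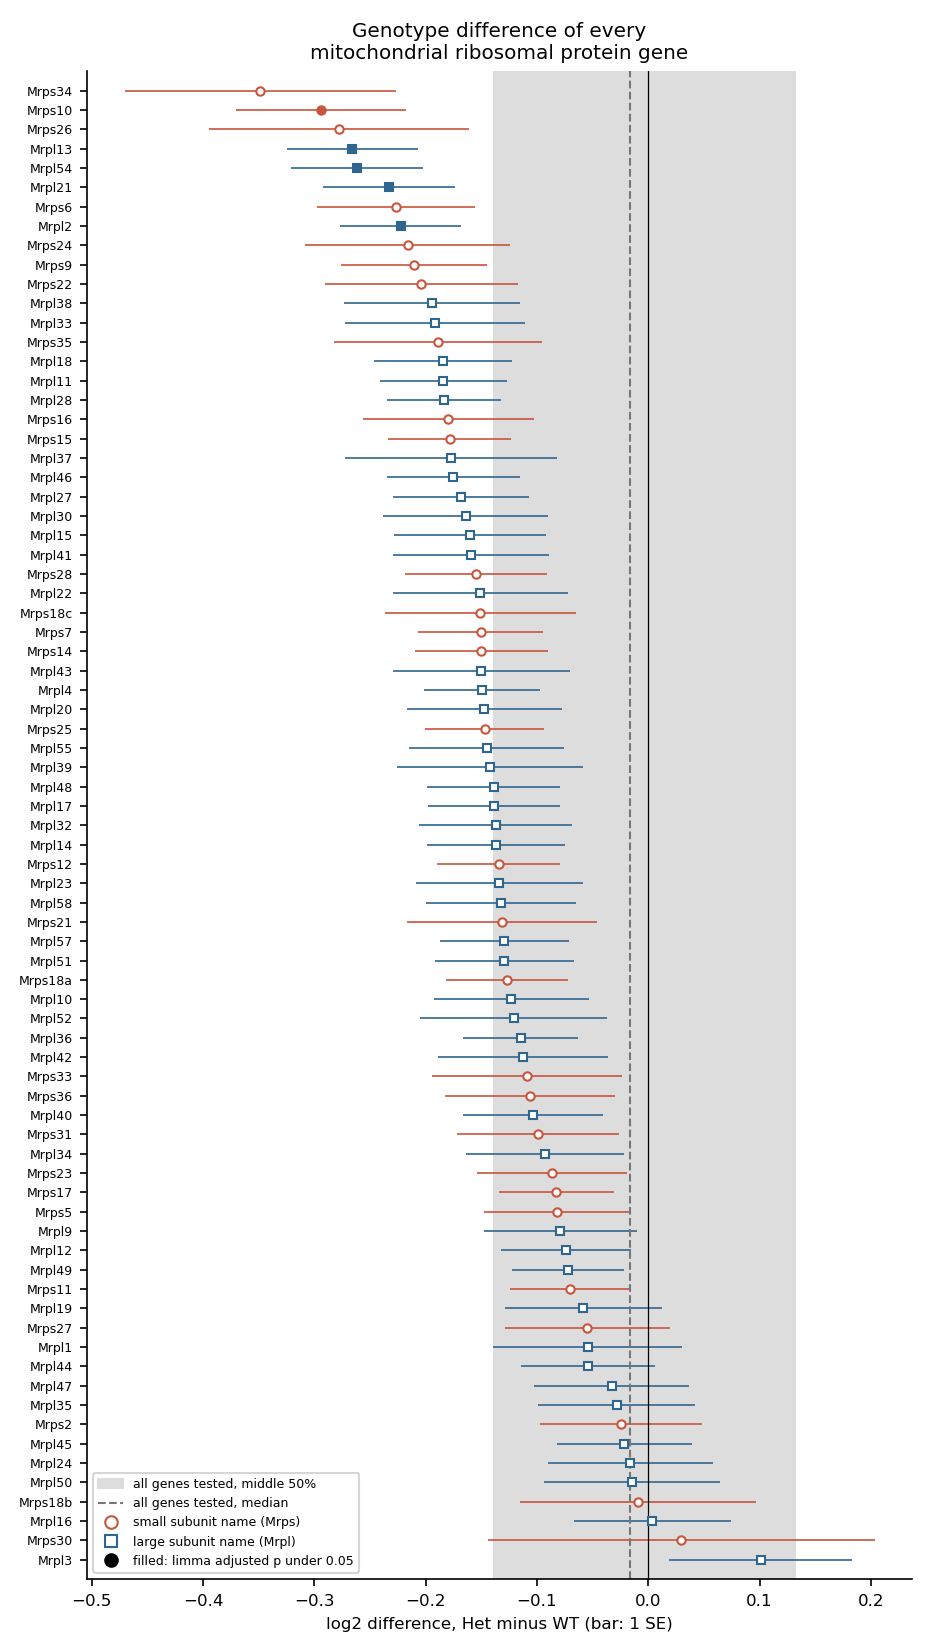
Fitted log2 difference, Het minus WT, for each of the 77 members in order of size, with bars of 1 SE; filled symbols passed a limma adjusted p of 0.05, and the grey band and dashed line give the middle 50% and the median of all genes tested. The members run from -0.35 for Mrps34 to 0.10 for Mrpl3, and 74 of 77 lie below 0.

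The size of the difference varied little. For 11 members the log2 difference was below -0.2, for 43 it was between -0.2 and -0.1, and for 20 it was between -0.1 and 0. Only Mrpl16, Mrps30 and Mrpl3 had positive values. The residual spread of a member was small, with a median SD of 0.11 on the log2 scale against 0.19 for all genes tested. Members were also higher in level, with a median of 94.87 CPM against 17.55 CPM for all genes tested. Neither this spread nor the shares called were compared at equal level. In both sexes taken alone, 64 members had a negative difference.

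Mrpl13 encodes a large subunit protein with a bacterial counterpart (ENSMUSG00000022370, mm10 chromosome 15 from 55534094 to 55557748). Its level was 123, 109, 122, 109 and 104 CPM in WT replicates 3, 4, 6, 7 and 11. In Het it ran from 90.6 through a median of 94.3 to 101 CPM, so all 6 Het values lay below all 5 WT values. The log2 difference was -0.27 (SE 0.06, limma adjusted p = 0.0239), and an exact two-sided permutation within sex gave p = 0.005, the smallest that 200 arrangements can give. The permutation was run only for members already past the limma threshold in the same libraries, and its p-values are not adjusted. It adds no independent support for those members. Mrpl13 passed in 7 of the 11 fits that left out 1 library.

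Mrps10, a small subunit protein with a bacterial counterpart (ENSMUSG00000034729, chromosome 17 from 47368887 to 47381417), had 69.0, 102, 90.3, 78.1 and 94.0 CPM in WT replicates 3, 4, 6, 7 and 11. Het libraries ran from 67.4 through 70.0 to 75.1 CPM. The Het values were close together and overlapped only with WT replicate 3, which was the lowest WT library for this gene. The log2 difference was -0.29 (SE 0.08, limma adjusted p = 0.0442; exact permutation p = 0.015). It passed in only 1 of the 11 fits without 1 library.

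Mrpl54 (ENSMUSG00000034932, chromosome 10 from 81264713 to 81266934), a large subunit protein without a bacterial counterpart, had 146, 154, 168, 129 and 131 CPM in the same order of WT libraries. Het libraries ran from 109 through 122 to 146 CPM. The groups overlapped, and females were higher than males within each. The log2 difference was -0.26 (SE 0.06, limma adjusted p = 0.0266; exact permutation p = 0.01), and it passed in 6 of 11 such fits.

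Mrpl21 (ENSMUSG00000024829, chromosome 19 from 3282901 to 3292837), whose large subunit protein has a bacterial counterpart, had 97.3, 97.2, 111, 94.3 and 88.8 CPM in WT. Het libraries ran from 79.7 through 83.0 to 89.4 CPM. Only WT replicate 11 reached into the Het range. The log2 difference was -0.23 (SE 0.06, limma adjusted p = 0.0419; exact permutation p = 0.005).

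Mrpl2 (ENSMUSG00000002767, chromosome 17 from 46646229 to 46650139) encodes a large subunit protein near the peptidyl transferase centre. WT libraries had 132, 130, 135, 131 and 116 CPM, and Het libraries ran from 102 through 112 to 116 CPM. As for Mrpl21, only WT replicate 11 reached the Het range. The log2 difference was -0.22 (SE 0.05, limma adjusted p = 0.0363; exact permutation p = 0.005). Mrpl2 and Mrpl21 each passed in 2 of the 11 fits without 1 library.

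**Figure D3:**
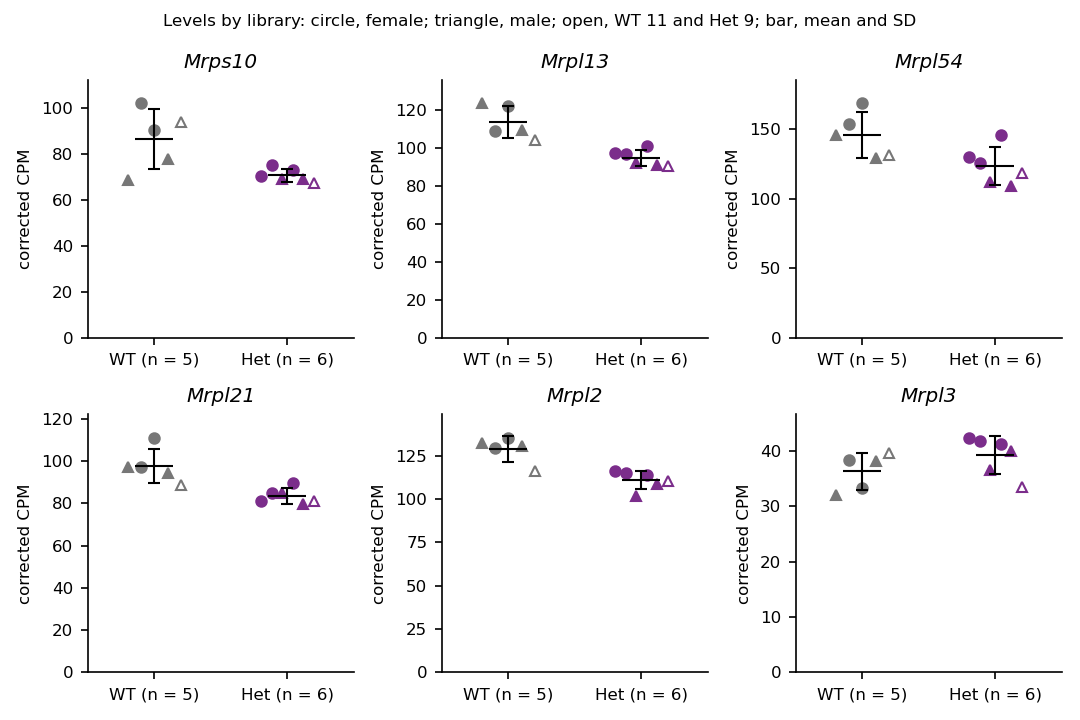
Corrected CPM of the 5 members that passed the genotype test, and of Mrpl3, the member with the highest difference, in each WT (n = 5) and Het (n = 6) library; circles are females, triangles males, open symbols WT replicate 11 and Het replicate 9, and bars the mean and SD. Mrpl13 alone of these 6 shows no overlap, from 104 to 123 CPM in WT and 90.6 to 101 CPM in Het.

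The largest fitted difference belonged to a member that did not pass. Mrps34, a small subunit protein specific to mitochondria, had 32.2, 58.4, 52.2, 41.9 and 47.1 CPM in WT replicates 3, 4, 6, 7 and 11. Het libraries ran from 29.3 through 32.9 to 54.8 CPM, so the groups overlapped over most of their range. On the log2 scale Het was at -0.35 (SE 0.12, limma adjusted p = 0.11). Mrps26, likewise without a bacterial counterpart, was at -0.28 on that scale (SE 0.12, limma adjusted p = 0.171), with WT values from 47.4 to 93.3 CPM. For both genes WT replicate 3 was the lowest WT library, and without it both passed, with 8 members called in that fit. The share of all genes called in that fit is not given here.

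Every Het value lay below every WT value for 4 members (5.19%), against 1.33% of all genes tested. They were Mrpl13, Mrps6, Mrps25 and Mrpl49, of which Mrps25 and Mrpl49 are named here after their values were seen. Mrps6 had 41.6, 42.2, 41.4, 45.04 and 41.9 CPM in WT replicates 3, 4, 6, 7 and 11 and 33.7 to 40.8 CPM in Het, which is -0.23 on the log2 scale (SE 0.07, limma adjusted p = 0.0847). Mrps25 had 131 to 146 CPM in WT and 120 to 130.0 CPM in Het, and 4590 of its 6576 exon bases overlap Nr2c2 on the other strand. Mrpl49 had 95.16 to 98.97 CPM in WT and 88.9 to 95.08 CPM in Het, so its groups touched without overlapping.

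At the other end, Mrpl3, a large subunit protein with a bacterial counterpart, had 32.1, 38.3, 33.3, 38.3 and 39.6 CPM in WT and 33.6 to 42.4 CPM in Het. Its log2 difference was 0.10 (SE 0.08, limma adjusted p = 0.493), and the groups overlapped. Mrps30 had 5.64 to 9.23 CPM in WT and 5.64 to 9.98 CPM in Het, a log2 difference of 0.03 (SE 0.17). Mrpl16 (0.00), Mrps18b (-0.01), Mrpl50 (-0.01), Mrpl24 (-0.02), Mrpl45 (-0.02) and Mrps2 (-0.02) had log2 differences smaller than their SE. Mrpl45 is known to hold the ribosome at the inner membrane.

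Small and large subunit names were alike. Of 29 Mrps genes, 28 were lower with a median log2 difference of -0.15 and 1 called, and of 48 Mrpl genes, 46 were lower with a median of -0.14 and 4 called. Members with a bacterial counterpart were lower in 44 of 46 cases with a median of -0.14 and 4 called. Those without one were lower in 27 of 28 with a median of -0.13 and 1 called, and all 3 members assigned to neither were lower with 0 called. Among the 3 paralogs, the log2 difference was -0.13 for Mrps18a, -0.15 for Mrps18c and -0.01 for Mrps18b, with none past the threshold. Mrps36 (-0.11), Mrpl12 (-0.07), Mrpl58 (-0.13) and Mrps12 (-0.13) also did not pass. No difference between these groups was tested.

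Without WT replicate 11 and Het replicate 9, 76 of 77 members were lower, and the median log2 difference was -0.16. In that fit 3 members passed (3.90%), against 0.493% of all genes called lower, and all 3 are among the 5: Mrpl13, Mrpl2 and Mrpl54. Leaving out any 1 library left 70 to 76 members lower, while the number called ran from 0 to 8. It was 0 without WT replicate 6, Het replicate 2 or Het replicate 8. Shares of all genes called are not given for the fits without 1 library. These counts therefore do not show whether members moved apart from the whole table. Labels carry 3 number prefixes of unstated meaning. In the 4 male libraries of prefix 14308, 72 members were lower with a median log2 difference of -0.22. In the 6 libraries of prefix 14309, 70 were lower with a median of -0.11, and 0 passed in either. The correction before deposit removed residual variation, so the SEs and p-values above may be too small, and with 1 residual degree of freedom taken off 0 members passed.

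The members shifted together from library to library. Summed over the 77 genes, levels were 9360, 8599, 9249, 8775 and 8177 CPM in WT replicates 3, 4, 6, 7 and 11. In Het they ran from 7740 through a median of 7939 to 8616 CPM, the highest being Het replicate 7. WT replicates 4 and 11 lay inside the Het range, and Het replicates 2 and 7 lay inside the WT range. The mean of this sum fell from 8832 CPM over the WT libraries to 8038 CPM over the Het libraries. Summing all genes tested gave a fall as well, from a mean of 1025000 to one of 978600 CPM. The fall in the summed members is therefore not all particular to them. In WT replicate 6, 70 of 77 members were above their own mean over all libraries, and in Het replicate 5 only 8 were. Het replicate 7 had 50 members above their mean and WT replicate 11 had 29.

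Genes for cytosolic ribosomal proteins and for the nuclear-encoded parts of the respiratory chain gave similar values. Of 76 cytosolic ribosomal protein genes, 76 were lower in Het, with a median log2 difference of -0.17 and 2 called. Of 80 nuclear oxidative phosphorylation genes tested, 79 were lower, with a median of -0.17 and 2 called. The 2 libraries with the highest members, WT replicates 3 and 6, were also highest for both of these groups. The median log2 deviation there was 0.14 and 0.14 for the members, 0.29 and 0.25 for cytosolic ribosomal proteins, and 0.22 and 0.22 for oxidative phosphorylation. In WT replicate 4 the members were 0.04 above their means while the cytosolic group was 0.05 below, at -0.05. Values this low in Het were thus found in all 3 groups. Without WT replicate 11 and Het replicate 9, the cytosolic group had 0 called and a median of -0.21, and the oxidative phosphorylation group had 2 called and a median of -0.21. After removal of the length and GC trend the medians were -0.04 and -0.02, with 1 called in each.

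**Figure D4:**
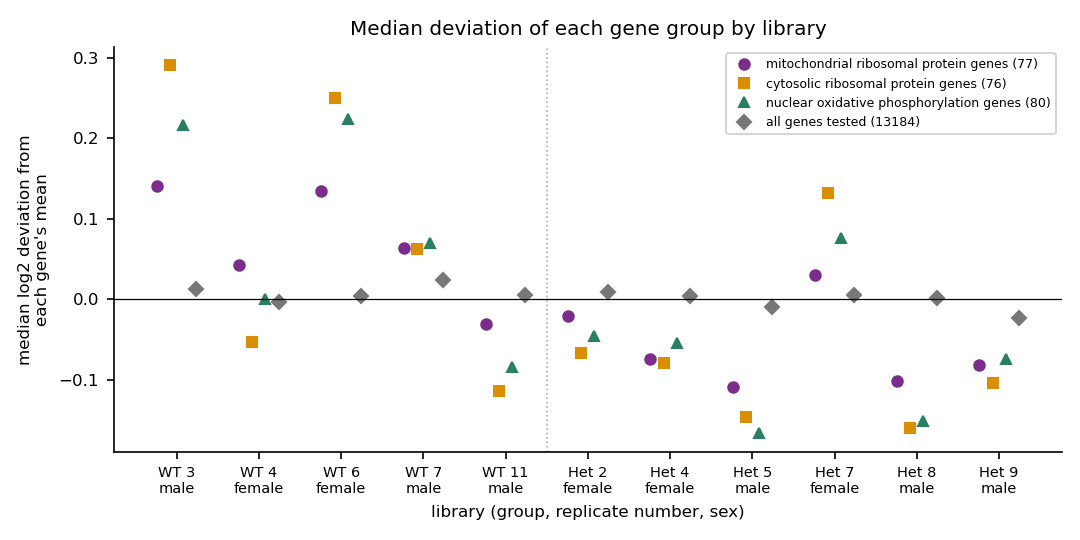
Median log2 deviation from each gene's own mean over 11 libraries for the members, 2 comparison groups and all genes tested, by library. WT replicates 3 and 6 are highest and Het replicates 5 and 8 lowest for all 3 ribosomal or respiratory groups, while all genes stay between -0.02 and 0.02.

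Genotype differences over the whole table followed transcript length, and most members are short. The longest annotated transcript of a member had a median of 1884 bases, against 3386 for coding genes of the table. In the shortest of 5 equal groups by length (204 to 2012 bases), all genes had a median log2 difference of -0.14, and the 40 members there had -0.15, with 3 called (7.5%) against 3.79% of all genes in that group called lower. In the longest group (5354 bases or more), all genes had a median of 0.15, and the 3 members there had -0.15. In the 3 groups between, medians were -0.13, -0.12 and -0.14 for the 13, 12 and 9 members, and -0.07, -0.01 and 0.05 for all genes. Member differences therefore stayed near the same value at every length, while those of all genes went from below to above 0. Spearman's rho between difference and length was 0.11 over the 77 members and 0.50 over 13179 genes, given as a description over genes that share the same libraries. Below the median of their own length group lay 52 members, and above it 25.

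Each library showed this trend. The median deviation of the shortest minus that of the longest length group was 0.08 to 0.22 in WT and -0.21 to -0.06 in Het, with no overlap. When the dependence on length and GC content was removed within each library, the median member difference was -0.04, with 48 members lower and 29 higher. In that fit 6 members passed (7.79%), all lower, against 0.607% of all genes: Mrps10 (-0.38), Mrpl13 (-0.35), Mrpl15 (-0.24), Mrps9 (-0.24), Mrpl48 (-0.23) and Mrpl17 (-0.22). Only Mrps10 and Mrpl13 are shared with the 5, and Mrps9, Mrpl48 and Mrpl17 are named after their values were seen. The longest transcripts of these 6 were 2421 bases for Mrps9 and 4090 to 7300 bases for the others. The trend itself was fitted on the length of all annotated exons. By that measure Mrps9 had 5763 bases and the others 7605 to 8487 bases. Member differences went with length in this fit, though hardly as deposited. Spearman's rho was -0.65 over the 77 members, against 0.11 as deposited, and 0.10 over 13179 genes, again as a description. The trend taken out was that of all genes, which rose with length, while member differences as deposited stayed near the same value. The other 3 of the 5 moved to -0.06 for Mrpl2, -0.06 for Mrpl54 and -0.12 for Mrpl21. Median GC content was 49.7% for members and 49.8% for coding genes. Whether the length trend comes from the tissue or from the handling of RNA was not tested.

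**Figure D5:**
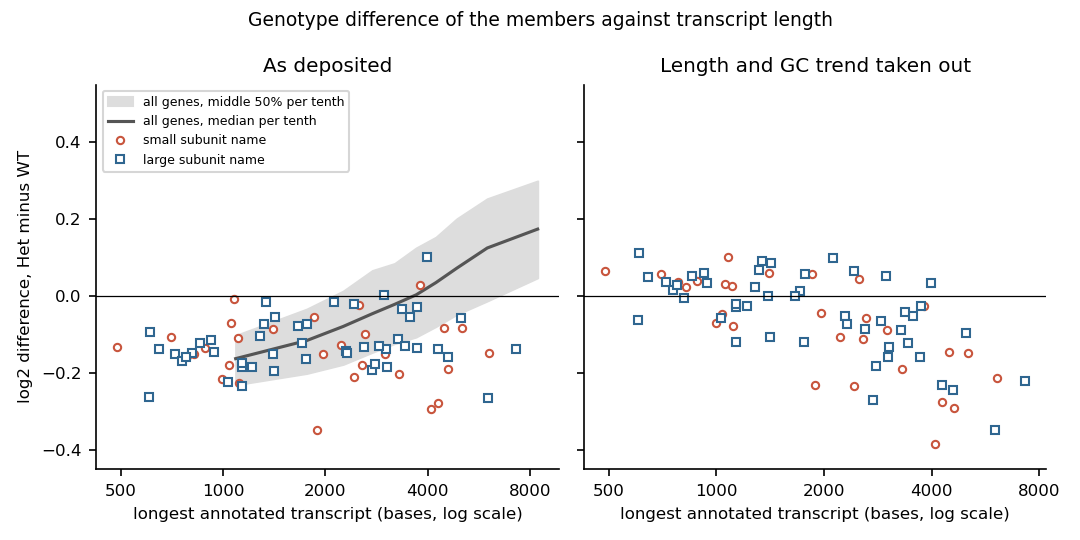
Log2 difference, Het minus WT, of each member against its longest annotated transcript on a log axis, as deposited with the median and middle 50% of all genes in each of 10 length bins (left) and after removal of the length and GC trend (right). At left the members stay near -0.14 while the median of all genes goes from -0.16 to 0.17, and at right 48 of 77 lie below 0.

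Markers of neighbouring brain regions also differed between the groups. Of 14 hypothalamus markers, 13 were lower in Het, with a median log2 difference of -0.29 and 5 called lower (Avp, Hcrt, Oxt, Gal and Pmch), and their summed level was 3011 to 3945 CPM in WT and 2033 to 3303 CPM in Het. All 14 striatum markers were higher in Het, with a median of 0.51 and 7 called higher, and their sum was 1969 to 2517 CPM in WT and 2295 to 4155 CPM in Het. No striatum marker was at 0 in any library. Het replicate 9 had the lowest hypothalamus sum and the highest striatum sum. The part of tissue composition in the member differences was not tested. The thalamus median was 0.16 with 1 called higher (Tcf7l2), and the choroid plexus median was -0.28 with 0 called. Without WT replicate 11 and Het replicate 9, the thalamus median was -0.0091 with 0 called and the choroid plexus median was -0.15. In that fit 3 hypothalamus markers were called with a median of -0.21, and 7 striatum markers with a median of 0.50. Marker medians for astrocytes (0.00), oligodendrocytes (0.03), microglia (-0.07) and endothelial cells (-0.01) were closer to 0, with 1 astrocyte gene called higher, Slc1a2. The astrocyte and oligodendrocyte medians turned to -0.015 and -0.029 without those 2 libraries. After removal of the length and GC trend the microglia median turned to 0.052. In that same fit the hypothalamus median was -0.15 with 1 called, and the striatum median was 0.51 with 6 called.

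Other genes of mitochondrial translation were taken from lists of known members, and 0 of them passed the genotype test. Of all genes tested, 1.14% were called lower and 3.44% in either direction. The lists held 5, 23, 15 and 20 tested genes, so a count of 0 is near that share. The 5 further subunits of the mitochondrial ribosome without Mrp names were all lower, with a median log2 difference of -0.13. Among them Gadd45gip1 had 19.9 ± 1.82 CPM in the 5 WT libraries against 16.1 ± 2.29 CPM in the 6 Het libraries (mean and SD), and Dap3, a small subunit protein that binds GTP, had 145 ± 7.29 and 129 ± 5.99 CPM. Their limma adjusted p-values were 0.0627 and 0.107. Of 23 assembly factors, 17 were lower with a median of -0.11, and of 15 translation factors, 11 were lower with a median of -0.09. Tufm, the elongation factor that delivers aminoacyl-tRNA, had 101 ± 6.92 CPM in WT and 90.02 ± 6.59 CPM in Het. Of 20 genes of mitochondrial aminoacyl-tRNA synthesis, 12 were lower (median -0.04).

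Genes that copy mitochondrial DNA and RNA were split, with 5 of 11 lower and a median of 0.04. Regulators of nuclear genes for mitochondria were also split, with 4 of 9 lower and a median of 0.04. The first median turned to -0.016 without WT replicate 11 and Het replicate 9, and the second to -0.045 after removal of the length and GC trend. Ppargc1a, the coactivator of mitochondrial biogenesis, had 22.8 ± 2.37 CPM in WT and 25.2 ± 1.48 CPM in Het (limma adjusted p = 0.307). Yy1 had 15.3 ± 1.56 and 13.5 ± 0.88 CPM (limma adjusted p = 0.318). Of the 13 proteins encoded in mitochondrial DNA, which this ribosome makes, 11 had lower RNA in Het with a median log2 difference of -0.13. After removal of the length and GC trend the direction turned, with 1 of 13 lower and a median of 0.10. The groups overlapped for mt-Nd5, which had the smallest p-value of them, with 3567 to 4249 CPM in WT and 2961 to 3665 CPM in Het.

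The starts of members often lie near the start of a gene on the other strand. For 33 members (42.9%) a coding gene on the other strand starts within 1000 bases, against 14.4% of coding genes in the table. This count includes pairs whose exons overlap, so it is not a count of shared promoters. Mrps11 and Mrpl46 start 412 bases apart on opposite strands, and their exons share 173 bases. Members with such a neighbour had a median log2 difference of -0.14 with 32 of 33 lower, and members without one had -0.14 with 42 of 44 lower. The 26 tested partner genes that are not members had a median of -0.02 with 14 lower and 0 called, against 3.44% of all genes called in either direction. For 4 of the 5 called members such a partner was tested, and none of these partners passed. Partner log2 differences were -0.28 for Mtbp (beside Mrpl13), 0.09 for Klc4 (beside Mrpl2), 0.21 for Ighmbp2 (beside Mrpl21) and -0.46 for Apba3 (beside Mrpl54), with SEs from 0.09 to 0.34.

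Exons of 27 members (35.1%) overlap a gene on the opposite strand, against 29.9% of coding genes, and the sources used here do not say whether counting used strand. Reads in such stretches are uncertain. Mrpl13 shares 330 bases with Mtbp, which had 1.38 ± 0.71 CPM in WT. Mrpl21 shares 117 bases with Ighmbp2, which had 5.11 ± 1.58 CPM in WT. The largest overlaps among the members named here were those of Mrps25, with Nr2c2, and of Mrps34, which shares 1309 of its 2064 exon bases with Mapk8ip3. Members with an overlap had a median log2 difference of -0.12, and those without had -0.14.

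Members with and without a promoter motif gave like values. The median log2 difference was -0.13 for the 35 members with any of the 3 motifs and -0.13 for the 33 with an entry and none. It was -0.14 for the 8 with NRF1, -0.13 for the 25 with the ETS motif and -0.11 for the 8 with YY1. Of the members called, Mrpl21 had a motif, Mrps10 and Mrpl2 had none, and Mrpl13 and Mrpl54 had no entry.

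No member differed between the sexes past the threshold, against 0.197% of all genes called (26 genes). At an unadjusted p under 0.05, 11 members (14.3%) were lower in males, against 6.45% of all genes. Male minus female log2 differences were negative for 59 of 77 members, with a median of -0.05. Mrps34 was lowest, with a mean of 48.2 CPM in females and 36.1 CPM in males (log2 difference -0.44, SE 0.12, limma adjusted p = 0.171). Mrps24 followed with 56.9 and 46.3 CPM (-0.33, SE 0.09, limma adjusted p = 0.173), then Mrps26 with 74.3 and 61.6 CPM (-0.30). The highest were Mrpl50 (0.11), Mrps2 (0.10) and Mrpl9 (0.09), with SEs of 0.07 to 0.08. All 4 libraries of prefix 14308 are male, so part of the sex comparison and the prefix cannot be told apart.

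The genotype difference did not depend on sex in any member at the threshold, and the share of all genes called for genotype by sex was 0.0%. At an unadjusted p under 0.05 the count of members was 0 as well, by limma, against 4.65% of all genes. The median member difference was -0.11 in females, with 65 lower, and -0.15 in males, with 75 lower. The smallest interaction p-values belonged to Mrpl32, whose protein is cleaved by an inner membrane protease before it joins the ribosome, Mrpl15 and Mrps22. Mrpl32 had a log2 difference of 0.01 in females and -0.25 in males. The corresponding values were -0.01 and -0.28 for Mrpl15, and -0.04 and -0.34 for Mrps22. By limma the adjusted interaction p was 0.982 for all 3.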

How the data were processed

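RNA was sequenced from 5 WT and 6 Het hypothalamus libraries, made with the SMARTer Ultra Low kit per the labels. Trimmomatic, Bowtie2, STAR and HTSeq with build mm10 are named in the submitters' processing notes, without versions. The deposited values are log2 CPM with a small added constant. Their upper quartile was 5.473 in every library, so libraries share an upper quartile and not a total. The deposited table's name gives a correction, RUVr (removal of unwanted variation from residuals), whose settings the sources used here do not give. CPM were recovered by back-transforming. All values were whole multiples of 1 step per library (100%, within a tolerance of 0.02), and these corrected counts gave the totals reported. Raw depth is unknown. The design had assumed linear CPM.

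Genes with a mean of at least 1 CPM (13184, leaving out 1680) were fitted on log2(CPM + 0.5) with limma 3.58.1 in R 4.3.3 (eBayes with trend, terms genotype and sex, and their product for the interaction). This scale understates changes of low genes. Two-sided p-values were adjusted over all genes tested (Benjamini-Hochberg, threshold 0.05). The method was tested on simulated data whose spread was independent between genes. The simulation held no shared library shift, no length trend and no correction, so it cannot show whether p-values are too small here. Positions and lengths came from GENCODE on mm10, and promoter sequences from RefSeq. Members and lists were chosen with earlier results of these data known. Named members are those past the threshold, the 8 lowest and 8 highest genotype differences, the 3 lowest and highest sex differences, the 3 smallest interaction p-values, the 5 highest and lowest levels per kb, and 8 chosen by function. In other lists they are those past the threshold or the 2 smallest p-values. Libraries were left out in turn, and scalings, filters, blocks and trends were varied.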

Additional observations from a re-analysis of the deposited data

Results flagged for a closer look

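In groups of 5 or 6 libraries, the gap of the highest or lowest library to the next was set against the range of its group with Dixon's 95% critical value, for the named members and for their median deviation. Of 66 groups tested, 4 held a library that stood apart, and chance alone gives about 1 in 20. Mrps26 was 76.1 CPM in Het replicate 4, against 54.7 to 61.9 CPM in the other Het libraries. Mrps6 was 45.04 CPM in WT replicate 7, against 41.4 to 42.2 CPM in the other WT libraries. Mrps2 was 54.7 CPM in Het replicate 9, against 41.7 to 46.5 CPM in the others. Mrps18a was 289.7 CPM in Het replicate 7, against 247 to 257 CPM in the others.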

How the results depend on the processing

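Of the 5 members called, the same 5 were called with a pseudocount of 1 or 0.1, on the deposited log2 values and without a filter. With libraries centred on their median, or a mean of at least 5 CPM, Mrpl28 was added. The number called was 0 with 1 residual degree of freedom taken off, without a trend in eBayes, in females alone, in males alone and within prefix 14308 or 14309. It was 1 without a sex term, 2 with a prefix block or quantile normalization, and 3 without WT replicate 11 and Het replicate 9. Except for that last fit, the share of all genes called is not given for these settings. Leaving out 1 library gave 0 to 8 calls, and a median member difference of -0.163 to -0.103. That median was -0.043 after removal of the length and GC trend, -0.088 under quantile normalization and -0.22 within prefix 14308. Under quantile normalization the cytosolic ribosomal protein genes had a median of -0.072 and the oxidative phosphorylation genes -0.064. With the replicate block, on the 4 libraries that share the numbers 4 and 7, 0 members were called and the median was -0.071. The numbers did not pair libraries: deviations of same-numbered libraries had correlations of 0.131 and -0.0919. The sex and interaction counts were 0 in every setting run for them. Signs turned for members with small differences or after trend removal. After trend removal the log2 difference was 0.045 for Mrps2, 0.065 for Mrpl45, 0.091 for Mrpl24, 0.098 for Mrpl50, 0.10 for Mrps18b, -0.026 for Mrps30, 0.039 for Mrps12, 0.066 for Mrps21, 0.030 for Mrpl41, 0.023 for Mrps18c, 0.068 for Mrpl12 and 0.059 for Mrps36. Under quantile normalization it was 0.024 for Mrpl45, 0.031 for Mrpl50 and -0.011 for Mrps30. Without WT replicate 11 and Het replicate 9 it was -0.012 for Mrpl16 and -0.053 for Mrps30, and with libraries centred on their median -0.021 for Mrpl16. Leaving out 1 library gave ranges of -0.055 to 0.0025 for Mrpl45, -0.052 to 0.042 for Mrpl24, -0.077 to 0.037 for Mrpl50, -0.074 to 0.054 for Mrps18b, -0.034 to 0.030 for Mrpl16 and -0.078 to 0.12 for Mrps30. The causes were not tested. Raw depth is unknown, which limits what can be said of the precision of low members such as Mrps30.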
